A study of Mus musculus with 6 samples.

Results

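Integrins and laminins are a receptor family and a ligand family of the basement membrane. Their genes were taken from the count table of day 4 embryoid bodies (EBs) by symbol, as every integrin alpha (Itga) and beta (Itgb) chain and every laminin alpha, beta and gamma chain (Lama, Lamb and Lamc), without genes of integrin-binding proteins. This gave 37 genes of the 23353 listed, 26 integrins and 11 laminins. A gene was tested where 3 or more libraries had a normalized count of 10 or more, and 30 of the 37 met this, among 13136 genes tested in all. The other 7, Itga2, Itgad, Itgam, Itgax, Itgb2, Itgb6 and Lama2, are given by value, outside the main test.

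EBs are suspended clumps of embryonic stem cells left to differentiate, and RNA-seq was performed on 2 groups of 3 libraries. The wildtype group was the parental mouse embryonic stem cell line W9.5. The EVX1-Δfs group was clone 14, a single clone made from W9.5 with CRISPR-Cas9, which carries a different small frameshift deletion on each allele of Evx1, in the part of exon 2 that encodes the homeodomain of this transcription factor. Both groups were grown for 4 days without LIF in medium with serum, and each of the 3 differentiations was started on its own day with both genotypes side by side. With 1 clone, an effect of the edit and a property of the clone cannot be told apart.

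The guide that directed the cut is shown because it defines the mutant group. It matched chr6:52265847-52265866 on the plus strand (NCBIM37, the assembly of mm9), in coding sequence of exon 2 of Evx1, and the PAM that follows it in the genome is in capitals.

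Evx1 guide and PAM: ccagatgcgccgataccgcaCGG

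In wildtype replicates 1, 2 and 3, Evx1 itself had 2358, 2176 and 2400 normalized counts, and in the EVX1-Δfs replicates 2354, 2516 and 2012. The groups overlapped (log2 fold change -0.02 ± 0.11 SE, limma adjusted p 0.950). A frameshift is not visible in reads per gene, so the genotype could not be checked from them.

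Integrins are cell surface receptors built from 1 alpha and 1 beta chain, and the pair of chains sets which matrix protein is bound. Laminins are trimers of an alpha, a beta and a gamma chain that polymerise into the basement membrane sheet, and the alpha chain carries the main integrin binding sites. In the early mouse embryo laminin lies under the epiblast, is broken down where cells leave through the primitive streak, and fibronectin lies along the path of the migrating mesoderm.

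Fold changes are EVX1-Δfs over wildtype from limma on log2(normalized count + 1), a scale that understates the change of low genes, and a gene was called at a Benjamini-Hochberg adjusted p under 0.05 over all 13136 genes. Of the 30 tested members, 0 rose and 1, the laminin alpha chain Lama4, fell. This is 3.33% of the members, beside 5.02% of all genes tested, of which 2.08% rose and 2.95% fell. By DESeq2 and by edgeR on the recovered reads the member counts were likewise 0 and 1, with 6.89% and 5.22% of all genes called. DESeq2 gave no adjusted p for the low members Itga1, Itga4, Itga10, Itga11, Itgae, Itgal, Itgb3, Itgb7, Itgb8, Lama3 and Lamc3, and so could not call them. An unadjusted p under 0.05 was reached by 5 members and by 3028 genes in all (23.1%). The fitted log2 fold changes were positive in 19 members and negative in 11, from -0.82 to 0.69, with a median of 0.08 against 0.00 over all genes.

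**Figure D1:**
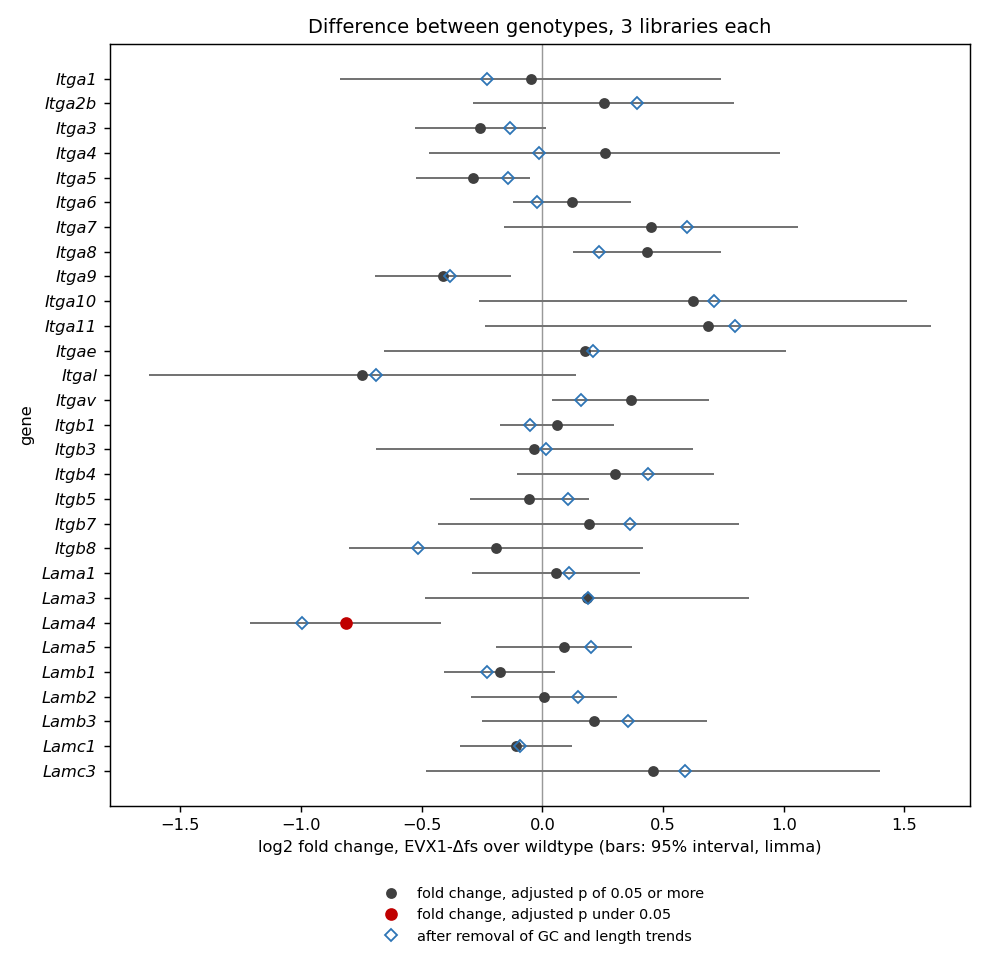
Fitted log2 fold change (EVX1-Δfs over wildtype, x axis) of 29 tested members in rows by symbol, as filled circles with bars for the limma 95% confidence interval, and open diamonds for the value with both trends, GC and length, removed. The interval excluded 0 in 5 members, and Lama4 (red), at -0.82, was the member with an adjusted p under 0.05.

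Lama4 encodes the laminin alpha4 chain, found in the basement membrane of blood vessels and in mesenchyme. The gene is at chr10:38685321-38829994 (plus strand, NCBIM37). Wildtype replicates 1, 2 and 3 had 172, 241 and 147 normalized counts, and the EVX1-Δfs replicates 84.0, 120 and 110. Every wildtype library was above every EVX1-Δfs library. The mean fell from 186 ± 48.7 to 104 ± 18.3 (SD, n = 3 each), which is -0.82 ± 0.19 (SE) as a log2 fold change, at a limma adjusted p of 0.0169. The call rested on the highest and the lowest of the 6 libraries, since the limma adjusted p was 0.0750 without wildtype replicate 2 and 0.0901 without EVX1-Δfs replicate 1. In bulk EBs, fewer cells of a type and less RNA per cell cannot be told apart.

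**Figure D2:**
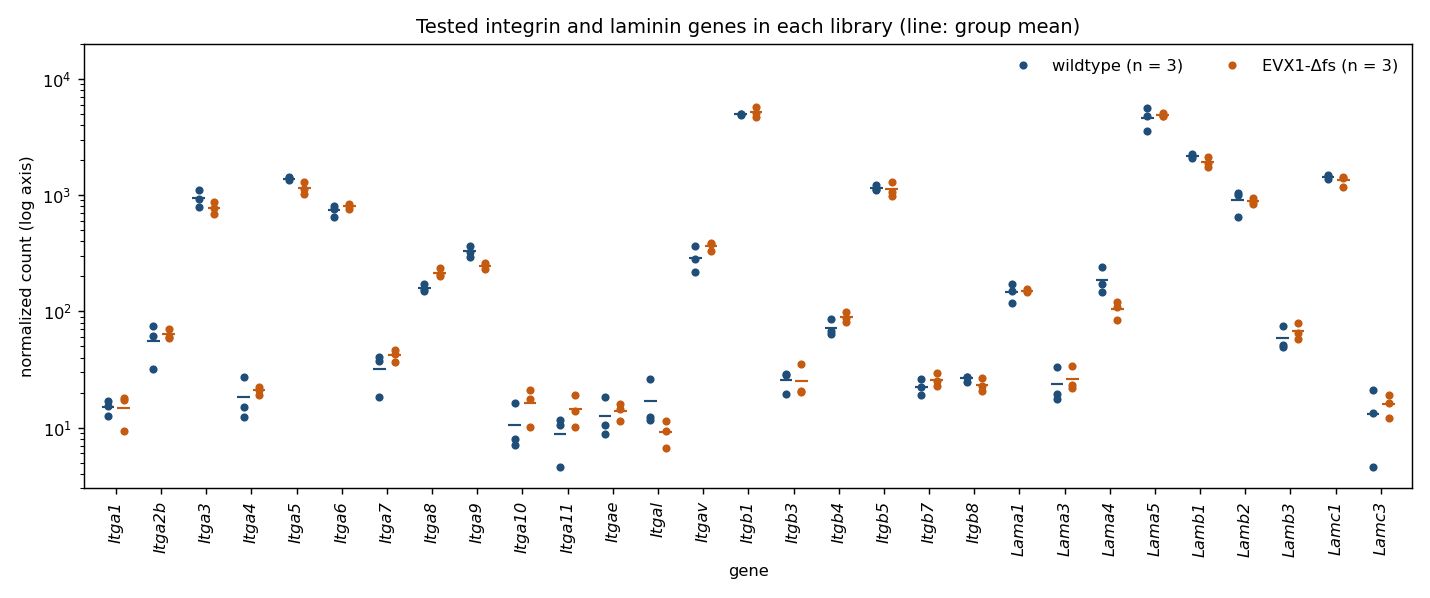
Normalized count (y axis, log scale) of 29 tested members in each library, with wildtype in blue and EVX1-Δfs in orange, a point per library and a short line at the group mean. The Lama4 points of the groups do not overlap, from 147 to 241 in wildtype and from 84.0 to 120 in EVX1-Δfs EBs, while those of Lama5 and Itgb1 do.

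Lama4 was also examined beside lists of cell type markers. These lists were chosen with earlier results of these data known, so their shares called are descriptions. Of 10 tested haematoendothelial markers, 0 rose and 4 fell, 40% called beside 5.02% of all genes. Their median log2 fold change was -0.78. Without overlap between the groups, 5 were lower and 0 higher, 50% and 0% beside 14.7% and 12.2% of all genes. The summed normalized count of that list was 3352 to 4442 in wildtype and 1954 to 2252 in EVX1-Δfs EBs. Its called genes were Kdr, the VEGF receptor of haemangioblasts (log2 fold change -0.91), and the transcriptional regulators Etv2 (-1.10), Gata2 (-0.96) and Lmo2 (-0.64). Its other tested genes were not called by limma. Fli1 was at -1.14, Cdh5 at -0.94, Tal1 at -0.49, Tek at -0.01, Pecam1 at 0.16 and Gata1 at 0.67. Of these, DESeq2 called Fli1 (DESeq2 adjusted p of 0.0397, limma adjusted p of 0.0566). Lmo2 was not called without wildtype replicate 2 (limma adjusted p of 0.0799), without EVX1-Δfs replicate 1 (0.0759) or with the GC and length trends removed (0.0917). None of the list was at 0 in all libraries, but the embryonic globins Hbb-bh1 and Hba-x did not pass the filter on low values.

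Of 5 tested markers of fibroblasts or late mesenchyme, 0 rose and 2 fell, 40% called beside 5.02% of all genes. The 2 were the collagen I chains Col1a1 (log2 fold change -1.66) and Col1a2 (-0.81). The others were not called, Pdgfrb at -0.43, Col3a1 at 0.20 and Thy1 at 0.07, and Dcn, Lum and Postn were at or near 0. The summed count of that list was 853 to 1450 in wildtype and 626 to 696 in EVX1-Δfs EBs, and most of the difference was Col1a1, with means of 455 and 133. The part of these cell types in the Lama4 result was not tested.

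Of the other laminin alpha chains, Lama5 had 5594, 4832 and 3544 normalized counts in the wildtype libraries and 4780, 4769 and 5046 in the EVX1-Δfs ones. The wildtype values spanned the EVX1-Δfs ones, and the log2 fold change was 0.09, with an interval from -0.19 to 0.37. Lama1, a chain of the first embryonic basement membranes, was at 147 ± 28.0 (SD, n = 3) and 151 ± 4.37 (SD, n = 3). Lama3, the chain of epithelial laminin, was at 23.5 ± 8.65 and 26.4 ± 6.51 (SD, n = 3 each), and neither Lama1 nor Lama3 was called. Lama2, the chain of muscle basement membrane, did not pass the filter, with 0.957, 1.77 and 4.58 normalized counts in wildtype and 7.47, 9.02 and 6.67 in EVX1-Δfs EBs. Its groups did not overlap, but the values stand for 1 to 8 reads per library and were not in the main test. In the alternative without the filter its log2 fold change was 1.48, not called at a limma adjusted p of 0.106.

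Levels were compared between genes only per kilobase of the longest protein-coding transcript, as normalized counts per kb. Lama5 made up 89.1% ± 2.27 of the summed wildtype alpha chain level and 92.1% ± 0.69 of that in EVX1-Δfs EBs (SD, n = 3 each). Lama4 made up 6.80% ± 1.45 and 3.72% ± 0.62 (SD, n = 3 each), from 5.32% to 8.22% in the wildtype libraries and from 3.07% to 4.32% in the EVX1-Δfs ones. These shares carry the same reads as the fold changes and were not tested separately. Per kb of that transcript, Lama4 ranked below Lama5 and above Lama1 in wildtype, at 30.8 against 409 and 15.4, and next to Lama1 in EVX1-Δfs EBs, at 17.3 ± 3.03 against 15.8 ± 0.46 (SD, n = 3 each), which is within the spread. These ranks and shares depend on the length used. With the union of annotated exons Lama4 was at 15.5 in wildtype, level with Lama1 at 15.4, and at 8.65 in EVX1-Δfs EBs, below Lama1 at 15.8.

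The beta and gamma chains that pair with them were not called. Lamb1, the common beta chain, had normalized counts of 2189, 2239 and 2102 in wildtype and 1746, 2139 and 1907 in EVX1-Δfs EBs, overlapping between the groups, with a log2 fold change of -0.18 (interval -0.41 to 0.05). Lamc1, the gamma chain of most laminins, was at 1479, 1475 and 1371 in wildtype and 1187, 1433 and 1394 in EVX1-Δfs EBs, with a log2 fold change of -0.11 (interval -0.34 to 0.12). EVX1-Δfs replicate 1 was the lowest library for both chains.

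Lamb2, a beta chain of muscle and kidney basement membranes, was at 901 ± 225 and 884 ± 53.2 (SD, n = 3 each). Lamb3, a chain of epithelial laminin, had a log2 fold change of 0.22, and Lamc3, a gamma chain, 0.46 at 13.0 and 15.8 normalized counts. Lamb1 carried 68.6% ± 4.77 of the summed beta chain level per kb in the wildtype and 65.7% ± 1.86 in the EVX1-Δfs libraries (SD, n = 3 each). This share depends on the length used. The union of annotated exons is 9917 bases for Lamb1, against 5784 for its transcript, while Lamb2 has 5624 by both, so the union gives Lamb1 a smaller share. Per kb, Lama5 and Lamb1 were thus the highest laminin alpha and beta chain in both groups, and Lamc1, which joins them in laminin-511, was at 189 ± 8.07 in the wildtype and 176 ± 17.4 in the EVX1-Δfs libraries (SD, n = 3 each).

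**Figure D3:**
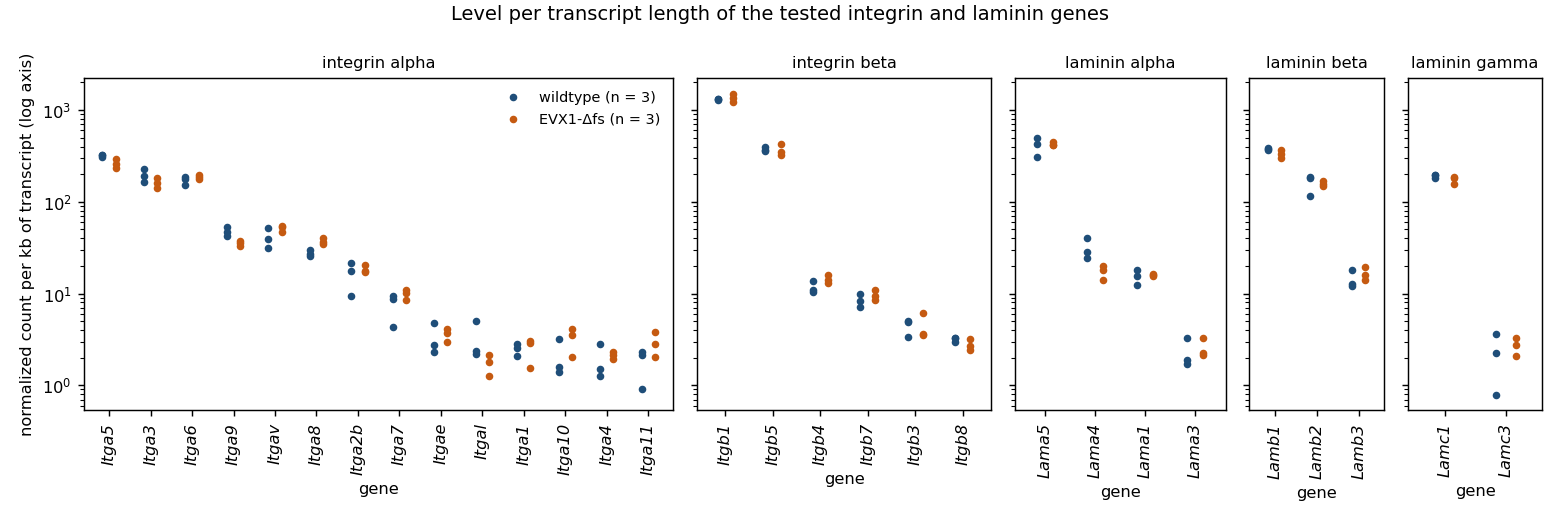
Normalized counts per kb of the longest protein-coding transcript (y axis, log scale) of 29 tested members, in a panel per chain family ordered by level, with a point per library, wildtype in blue and EVX1-Δfs in orange. Itga5, Itgb1, Lama5 and Lamb1 had the highest mean of their families in both groups.

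Itgb1 encodes the beta1 chain, the partner of most alpha chains for laminin, collagen and fibronectin. It had normalized counts of 5019, 5025 and 4855 in wildtype and 5141, 4690 and 5768 in EVX1-Δfs EBs. The wildtype values lay within the EVX1-Δfs range, and the log2 fold change of 0.06 had an interval from -0.18 to 0.30. Per kb, Itgb1 made up 76.4% ± 1.17 of the wildtype beta chain level and 77.4% ± 3.84 of the EVX1-Δfs one (SD, n = 3 each).

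Itgb5, a partner of alphav for vitronectin, took most of the remainder, 21.9% ± 1.16 and 20.7% ± 3.74 (SD, n = 3 each), with a log2 fold change of -0.05. The other tested beta chains were low. Itgb4, the hemidesmosome chain, was at 72.2 and 88.8 normalized counts (log2 fold change 0.30), Itgb3, the partner of platelet alphaIIb and of alphav, at 25.5 and 25.4 (-0.03), and Itgb8, an activator of latent TGF-beta, at 26.6 and 23.3 (-0.19). Itgb6, an epithelial partner of alphav, was at 0 in every wildtype library and reached 1.91 at most.

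Among the laminin-binding alpha chains, Itga3 and Itga6 were well expressed and were not called. Itga3 had normalized counts of 1109, 920 and 789 in wildtype and 688, 778 and 880 in EVX1-Δfs EBs, with the ranges overlapping at their edge, and a log2 fold change of -0.26 ± 0.13 (SE). Itga6 was at 740 ± 78.5 and 804 ± 44.9 (SD, n = 3 each), a log2 fold change of 0.12 ± 0.12 (SE). Itga7, the laminin receptor of muscle, was low at 31.9 and 41.8.

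The RGD-binding alpha chains recognise the Arg-Gly-Asp motif of fibronectin and vitronectin. They held 3 of the 5 members with an unadjusted limma p under 0.05, which 23.1% of all genes tested reached. None of the 3 was called, and Itga5 was lower while Itga8 and Itgav were higher in EVX1-Δfs EBs. Itga5, which with Itgb1 forms the main fibronectin receptor, was at 1411, 1421 and 1337 in wildtype and 1021, 1288 and 1120 in EVX1-Δfs EBs. Every EVX1-Δfs library was below every wildtype library, but the log2 fold change of -0.29 ± 0.11 (SE) was not called, with a limma adjusted p of 0.132. Itga8, the nephronectin receptor, had normalized counts of 149, 172 and 157 in wildtype and 234, 203 and 210 in EVX1-Δfs EBs, again without overlap, and the log2 fold change of 0.43 ± 0.15 (SE) had a limma adjusted p of 0.0839.

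Itgav, whose alphav chain binds vitronectin, fibronectin and latent TGF-beta, was at 280, 365 and 219 in wildtype and 328, 378 and 387 in EVX1-Δfs EBs, overlapping at wildtype replicate 2. The log2 fold change, 0.37 ± 0.16 (SE), had a limma adjusted p of 0.167. Without wildtype replicate 2 it was 0.55 with an adjusted p of 0.0465, so that library decided whether Itgav was called. Itga2b, the platelet alphaIIb chain and an early marker of blood progenitors, was at 55.9 ± 21.6 and 63.3 ± 6.73 (SD, n = 3 each). Itga5, Itga3 and Itga6 together led the alpha chains per kb, at 317, 193 and 172 in wildtype and 261, 161 and 187 in EVX1-Δfs EBs. The order of Itga3 and Itga6 depended on the length used, and with the union of annotated exons Itga6 was below Itga3 in both groups, at 82.0 against 165 in wildtype and 89.1 against 137 in EVX1-Δfs EBs.

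Itga9, a receptor for tenascin, osteopontin and fibronectin, had the next smallest p after Lama4. Its normalized counts were 326, 368 and 295 in wildtype and 233, 248 and 259 in EVX1-Δfs EBs. All 3 EVX1-Δfs libraries were below the wildtype ones, and the log2 fold change of -0.41 ± 0.14 (SE) had a limma adjusted p of 0.0749. Itga4, the receptor for VCAM1 and fibronectin, was low at 18.3 and 20.8 normalized counts, with a log2 fold change of 0.26.

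Collagen-binding alpha chains were near the filter. Itga1, Itga10 and Itga11 had wildtype means of 14.9, 10.5 and 8.87 normalized counts and log2 fold changes of -0.05, 0.62 and 0.69 with standard errors of 0.38, 0.43 and 0.45, and Itga2 had 2.26 in 1 EVX1-Δfs library and 0 in the other libraries. Exons of Itga10 overlap another gene on the same strand, so its reads are uncertain.

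Integrins of white blood cells were low or at 0. Itgal, Itgae and Itgb7 were tested, with log2 fold changes of -0.75, 0.18 and 0.19, and none was called. Itgal was at 12.4, 11.5 and 26.3 in wildtype and 9.34, 11.3 and 6.67 in EVX1-Δfs EBs, 7 to 23 reads per library, and the nearest values of the groups, 11.5 and 11.3, did not overlap. Itgam reached 8.40, Itgb2 5.73 and Itgax 1.13 normalized counts, and Itgad was at 0 in every library. Ptprc, the pan-leukocyte antigen, was also at 0 in all 6 libraries, and of the 8 leukocyte markers only Cd68 and Coro1a passed the filter, with neither called.

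Counting groups that did not overlap, 4 tested members were lower in every EVX1-Δfs library (Lama4, Itga9, Itga5 and Itgal), 13.3% beside 14.7% of all genes tested, and 1 was higher (Itga8), 3.33% beside 12.2%. The 9 members with a wildtype mean over 500 normalized counts had log2 fold changes between -0.29 and 0.12, and no bound of their 95% intervals lay farther than 0.53 from 0. Wildtype replicate 3 was the lowest of the 6 libraries in 11 of the 30 members, 36.7% beside 24.0% of all genes, and EVX1-Δfs replicate 1 in 9, 30.0% beside 16.5%.

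In these libraries the fold change followed base composition. Over 12827 genes with an annotated transcript, Spearman's rho between the log2 fold change and exon GC content was -0.46, as a description, since the genes share the 6 libraries. The members ranged from 39.5% to 59.9% GC with a median of 52.7%, and among the 30 the rho was 0.19. Lama4 had a GC content of 44.4%, on the side where fold changes over all genes were higher, and with the per-library trends on GC content and length removed its log2 fold change was -0.997 (limma adjusted p 0.00402). The same removal brought Itga8 from 0.43 to 0.23, Itgav from 0.37 to 0.16 and Itga5 from -0.29 to -0.14, and left Itga9 at -0.38. Among the 30 members the rho with GC content went from 0.19 to 0.51 with the trends removed. For the members the removal thus strengthened the relation to GC content, and its values are an alternative rather than a correction.

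**Figure D4:**
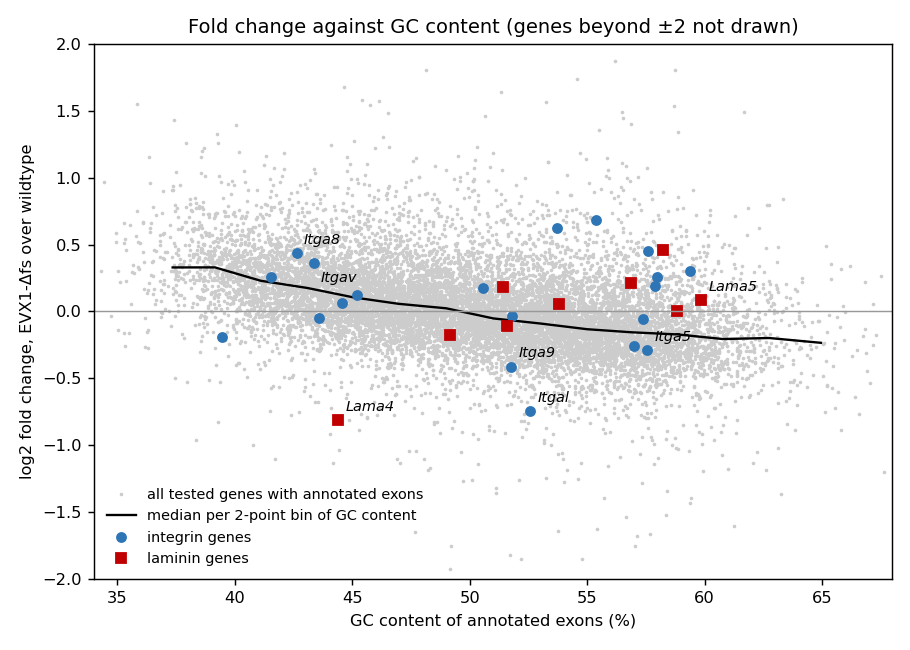
Log2 fold change (EVX1-Δfs over wildtype, y axis) against GC content of the annotated exons in percent (x axis). Grey points are the tested genes with annotated exons, without those beyond the y axis. The black line is the median of the tested genes with annotated exons along GC content. Blue circles (integrins) and red squares (laminins) are 29 members. The line falls from above 0 at low GC content to below 0 at high GC content, and Lama4 lies under it, at 44.4% GC and -0.82.

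The matrix partners and ligands of the members were read from lists of 15 basement membrane genes and non-integrin laminin receptors, 20 other integrin ligands and 30 adaptors. They, too, were chosen with earlier results of these data known. Of the 15 basement membrane genes, all tested, 1 rose and 2 fell, 20% called beside 5.02% of all genes. Their median log2 fold change was -0.04. Frem1, a protein of the basement membrane below epithelia, rose from 15.3 ± 4.51 to 43.5 ± 3.65 normalized counts (SD, n = 3 each), a log2 fold change of 1.48 (limma adjusted p 0.00849). Fbln2, a fibulin that binds laminin and fibronectin, fell by 0.78 on the log2 scale (adjusted p of 0.0168), and Col4a2, a collagen IV chain, by 0.49 (0.0365). Dag1, the dystroglycan receptor of laminin, the nidogens Nid1 and Nid2, perlecan (Hspg2) and agrin (Agrn) were not called, with log2 fold changes of -0.04, -0.13, 0.14, -0.07 and 0.08.

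Fn1, the fibronectin gene and the ligand of Itga5 and Itgav, had 28666, 38971 and 23623 normalized counts in wildtype and 12593, 17489 and 15046 in EVX1-Δfs EBs. All EVX1-Δfs libraries were below all wildtype ones (log2 fold change -0.998 ± 0.17 SE, limma adjusted p 0.00149). Of the 17 tested ligands, 1 rose and 3 fell, 23.5% called beside 5.02% of all genes, with a median of -0.07. Besides Fn1, Emilin1, a ligand of alpha4 and alpha9 integrins, fell from 176 ± 7.22 to 85.4 ± 7.97 (SD, n = 3 each) and Tgfb2, a TGF-beta ligand, by 0.64 on the log2 scale (limma adjusted p of 0.0326). Spp1, osteopontin, rose by 0.69 (adjusted p of 0.00890).

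Of 28 tested adaptors, actin linkers and kinases, 0 rose and 2 fell, 7.14% called beside 5.02% of all genes, with a median of -0.08. They were Actn1, an actin crosslinker of focal adhesions, which fell by 0.45 on the log2 scale at a limma adjusted p of 0.0285, and the scaffold Bcar1, by 0.43 (0.0267). Talin 1 (Tln1), vinculin (Vcl), Ilk and the kinase Ptk2 were not called, at -0.14, 0.01, -0.05 and -0.04. Without overlap between the groups, 10 adaptors were lower and 1 higher, 35.7% and 3.57% beside 14.7% and 12.2% of all genes. For the basement membrane genes these shares were 20% and 6.67%, and for the ligands 29.4% and 11.8%.

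Across the 3 lists 2 genes rose and 7 fell. By DESeq2 on the recovered reads, where 6.89% of all genes were called, all of these were called as well. DESeq2 also called Fbln1, Pxn and Cd9 (DESeq2 adjusted p of 0.0431, 0.0489 and 0.0440). Their limma log2 fold changes were -0.43, -0.32 and 0.44. With the replicate number, taken to mark the differentiation day, as a block, 1.69% of all genes were called. In the lists 2 rose and 3 fell, and Col4a2, Tgfb2, Bcar1 and Actn1 were not called (limma adjusted p of 0.0638, 0.0564, 0.0628 and 0.0581). With the GC and length trends removed, where 1.98% were called, 2 rose and 3 fell, and Fbln2, Col4a2, Actn1 and Bcar1 were not called (adjusted p of 0.0605, 0.195, 0.0917 and 0.279). With both adjustments together 0 rose and 3 fell, and Frem1 and Spp1 were not called (limma adjusted p of 0.0531 and 0.0576). Leaving out 1 library gave 1 to 3 higher and 2 to 8 lower, with 2 lower without wildtype replicate 2 and 2 without EVX1-Δfs replicate 1, and 4 lower and 1 higher without EVX1-Δfs replicate 3. Actn1 and Bcar1 each lost the call in 4 of the 6 such fits and Col4a2 in 4, Tgfb2 in 3, Fbln2 in 2 and Spp1 in 1, while Fn1, Emilin1 and Frem1 were called in all 6 of these fits. In wildtype, replicate 2 was the highest and replicate 3 the lowest library for Lama4, Fn1, Fbln2, Col4a2 and Tgfb2 alike, and EVX1-Δfs replicate 1 was the lowest of all 6 for each of these genes.

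**Figure D5:**
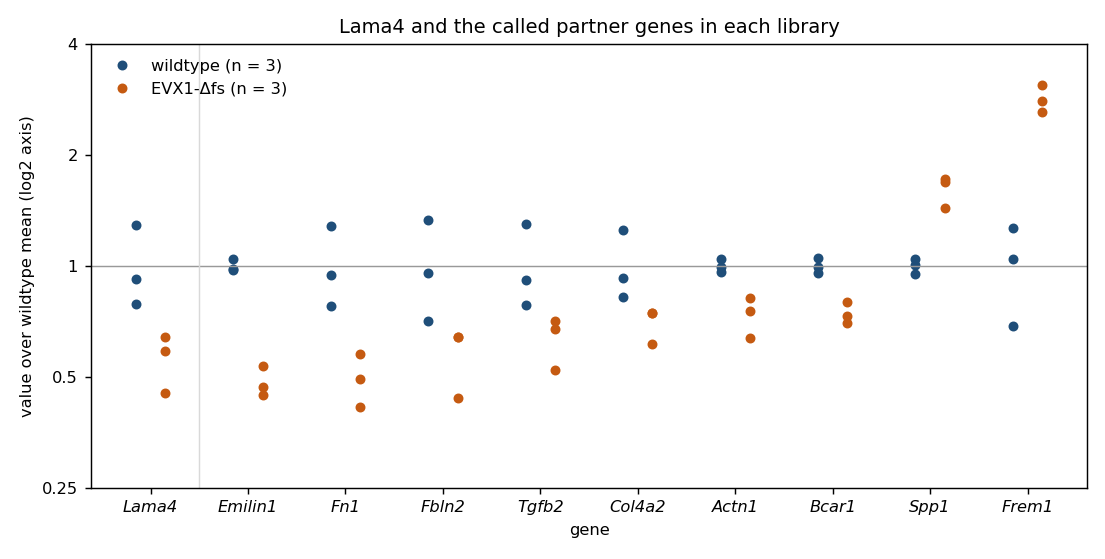
Normalized count of each library over the wildtype mean of the gene (y axis, log2 scale) for Lama4 and the 9 called partner genes, with a point per library, wildtype in blue and EVX1-Δfs in orange. The groups do not overlap in any of these genes, from Emilin1 and Fn1, lower in EVX1-Δfs EBs, to Spp1 and Frem1, higher.

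Promoters were compared by sequence, with windows of 250 bases before the start taken from RefSeq (GRCm38.p6) for the 23 members that matched, 26 windows in all. The pair below is shown because it holds the laminin alpha chain with the highest level and one near 0 counts, in windows that differ in CpG content, and capitals mark every CG. Lama5 (chr2:180225860-180226109, minus strand) has 19 CpG in 72.4% GC, and Lama2 (chr10:27616943-27617192, minus strand) has 0 in 47.2% GC.

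Lama5: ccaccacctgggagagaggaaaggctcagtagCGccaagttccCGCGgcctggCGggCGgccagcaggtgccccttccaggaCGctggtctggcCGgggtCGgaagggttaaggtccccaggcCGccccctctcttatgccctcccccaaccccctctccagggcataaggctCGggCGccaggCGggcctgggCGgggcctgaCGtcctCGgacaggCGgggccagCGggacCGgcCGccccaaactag

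Lama2: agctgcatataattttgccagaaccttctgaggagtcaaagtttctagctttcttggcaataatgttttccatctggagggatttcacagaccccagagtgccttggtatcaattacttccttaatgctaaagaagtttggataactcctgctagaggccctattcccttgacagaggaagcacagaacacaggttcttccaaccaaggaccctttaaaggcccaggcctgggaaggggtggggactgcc

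The member windows had a median of 10 CpG and 58.0% GC, against 6 CpG and 52.4% over 32851 windows of all genes. Over the 23 members, Spearman's rho between the wildtype level per kb and the CpG count was 0.52, a description over genes of the same libraries. The 14 members above the median CpG of all windows had a median level of 43.9 normalized counts per kb and the 9 at or below it 2.07. Single members departed from this. Lamb2 had 3 CpG and a wildtype level of 160 per kb, and Itga2 had 12 CpG and a wildtype level of 0. Homeodomain core letters were searched on both strands. TAATTA was in 0 of the 26 windows and in 4.84% of all windows, and TAATGA in 2 (Itga5 and Itga8), 7.69% beside 8.59%. The GC box letters GGGCGG were in 9 windows, 34.6% beside 32.7%, and 4 of the matches to them lay in the Lama5 window.

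Markers of other cell types in the EBs are given for reading these levels. All 10 pluripotent epiblast markers were tested and 1, Fgf5, rose, but 5 of the 10 (Nanog, Sox2, Zfp42, Esrrb and Fgf5) were higher in every EVX1-Δfs library than in any wildtype one, 50% beside 12.2% of all genes, and the median log2 fold change of the list was 0.27. Nanog, Sox2, Zfp42 and Esrrb had limma adjusted p-values from 0.0544 to 0.0559, and DESeq2 called them, with adjusted p from 0.0293 to 0.0442. The summed count, to which Pou5f1 and Tdgf1 gave most, overlapped, at 15878 to 22995 in wildtype and 17818 to 20972 in EVX1-Δfs EBs. Of the 8 tested markers of parietal and primitive endoderm, which secrete laminin, 1, Sox17, rose, at a log2 fold change of 0.91. The other endoderm regulators on the list, Sox7, Gata4 and Gata6, had log2 fold changes of -0.89, -0.38 and -0.38 and were not called (limma adjusted p of 0.122, 0.112 and 0.146). The median of the list was -0.10, and its summed count was 2124 to 2558 in wildtype and 2120 to 2634 in EVX1-Δfs EBs. Fst and Pdgfra had the highest means in that sum, 945 and 453 in wildtype and 1093 and 475 in EVX1-Δfs EBs. Gata4 and Gata6 had means of 368 and 371 in wildtype and 283 and 288 in EVX1-Δfs EBs. With the replicate number as a block neither Fgf5 nor Sox17 was called (limma adjusted p of 0.0624 and 0.0564). Of 4 tested visceral endoderm markers 0 were called, and the defining markers Afp and Ttr were at or near 0. Reads assigned to genes numbered 7597879 to 9914471 per library.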

How the data were processed

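RNA was measured in 6 libraries of day 4 EBs, grouped by the sample labels. Ion Proton libraries of selected mRNA were mapped by the authors to mm9 with TopHat2 and TMAP and counted per gene with HTSeq at standard settings, per the labels and the paper's methods; versions and annotation are not given in the sources used here. The deposited table holds a signal, reads per gene divided by 1 factor per library by the authors. Its values were whole multiples of a step in 100% of cases (within 0.01 reads, largest distance 3.71e-05), so reads were recovered, and the factors differed from DESeq2's size factors by at most 0.00577%. Of the listed genes, 5108 were at 0 in all libraries, and the ribosomal RNA gene Rn45s held 1.87% to 4.95% of the reads. Intervals and tests cover the spread between 3 separate differentiations per genotype.

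The main test was limma (3.58.1) with a mean-variance trend on log2(value + 1), in R 4.3.3. DESeq2 (1.42.0) and edgeR's quasi-likelihood test (4.0.16) on the recovered reads, a replicate block, removal of per-library GC and length trends (natural splines, 5 degrees of freedom), a pseudocount of 16, upper-quartile and TMM scaling, no filter on low values and leaving out each library in turn were alternatives. Counts cover all members, 1 tested member is not reported individually here, members called get every library's value, and up to 4 called genes per partner list are named. The members and lists were chosen with earlier results of these data known.

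The design text states side by side differentiations, each on a different day, so the replicate number was taken to pair libraries. Over 13136 genes, the departures of paired libraries from their group means had correlations of 0.111, 0.00933 and -0.101 (replicates 1, 2 and 3).

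Gene positions, exon GC content and transcript lengths came from GENCODE vM1 on NCBIM37, with 21755 of 23353 symbols (93.2%) matched, 732 through an older symbol. HTSeq's standard settings count by strand, which was not tested here. Exons of Itga4, Itga7, Itga8, Itgad, Itgav, Itgb4 and Lamc3 overlap another gene on the opposite strand, by 1 to 1124 bases. No sequences are printed for members without an entry in the RefSeq promoter table.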

Additional observations from a re-analysis of the deposited data

How the results depend on the processing

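Lama4 kept its direction under all 15 alternatives, with log2 fold changes from -0.997 to -0.62, and was called in 13. Leaving out 1 library, its log2 fold change ran from -0.97 to -0.62, and the members called numbered 0 to 1 higher and 0 to 1 lower. Pairing the libraries by replicate number (replicate block) left Lama4 called, with a limma adjusted p of 0.0390, and changed no other call of a member. Over the whole table, 273 genes were called higher and 387 lower, against 76 and 146 with the replicate block, 106 and 148 with GC and length trends removed, and 45 and 89 with both. Leaving out 1 library, these were 80 (without EVX1-Δfs replicate 3) to 340 higher and 140 (without EVX1-Δfs replicate 1) to 362 lower. Upper-quartile scaling gave 370 higher and 325 lower, DESeq2 284 and 517. In the partner lists, the lower calls went from 7 to 3 with the replicate block, with the trends removed and with both, where 0 were higher, and ran from 2 to 8 over the omissions, and 1 to 3 were higher. DESeq2 went the other way, keeping every partner gene called in the main test and adding Fbln1, Pxn and Cd9. Removing the GC and length trends, with or without the replicate block, turned the log2 fold changes of Itga4 to -0.0129, Itga6 to -0.0210, Itgb1 to -0.0507, Itgb3 to 0.0130 and Itgb5 to 0.105, and Lamb2 was at -0.0285 by DESeq2 and -0.0191 by edgeR. Ranges over the omissions that crossed 0, none of them called, were -0.21 to 0.23 for Itga1, -0.10 to 0.50 for Itga2b, -0.0228 to 0.46 for Itgae, -0.0162 to 0.13 for Itgb1, -0.29 to 0.10 for Itgb3, -0.17 to 0.0321 for Itgb5, -0.0919 to 0.19 for Lama1, -0.00080 to 0.46 for Lama3, -0.10 to 0.23 for Lama5, -0.22 to 0.13 for Lamb2 and -0.10 to 0.89 for Lamc3. Of 424 member values over all alternatives, 393 kept their direction and side of the threshold, 2 lost the call, 1 gained it and 28 changed sign. The causes were not tested. Per kb, TMM scaling moved 0 of 72 group levels beyond 1 SD and the union of annotated exons, chosen after seeing the data, moved 22. With standard errors of 0.11 to 0.45, 3 libraries per genotype limit what could be detected in members of low count.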
